A study of Homo sapiens with 6 samples.

Results

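Read-through genes are annotated genes whose transcripts run from one gene into the next gene downstream on the same strand, and they carry both names joined by a hyphen. The deposited table of gene expression holds 52 rows whose name is a pair of symbols joined by 1 hyphen, of 11187 rows in all. Of these, 50 join the symbols of a pair of genes, and 2, MMP24-AS1 and NCBP2-AS2, are antisense names that the same rule takes in. The 2 antisense genes lie on the strand opposite to the gene they are named for, so the name does not mark them as read-through genes. The joined names contain 103 parent symbols, of which 86 have a row of their own. Both parents were listed for 36 of the 52 rows, 1 parent for 15 rows, and neither for IQCJ-SCHIP1.

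The cells were AGS, an established line of epithelial cells from a human gastric adenocarcinoma, grown in DMEM with fetal bovine serum. They were transiently transfected either with NC, the control of the study, or with miR-3648 mimics, which imitate that microRNA, and each group was sequenced as 3 libraries. The title of the study names miR-3648, FRAT1, FRAT2 and MYC, and the level of the mimics in the cells was not analysed here. The labels do not say that replicates came from separate cultures, so a p-value here reflects variation from library to library, part or all of which can be technical.

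Expression is in FPKM, a fragment count scaled to transcript length and to the fragments mapped in the library. The depth of the libraries is unknown, because the table gives no counts. FPKM over the listed genes summed to between 208274 and 222947 per library, and the 52 rows held 0.156% to 0.263% of that sum. Of 10 epithelial marker genes, 10 were listed, with EPCAM at 177 to 206 FPKM and the adhesion gene CDH1 at 2.484 to 4.202 FPKM. Their summed level was 877 to 1056 FPKM in the NC group against 1002 to 1017 FPKM with mimics. Of the markers of other cell types, 2 of 7 for fibroblasts, 2 of 6 for leukocytes and 1 of 5 for endothelium were listed, at summed levels of 3.88 to 4.28, 5.03 to 7.33 and 1.87 to 2.96 FPKM over the 6 libraries. Those listed were COL1A1, PDGFRA, CD68, LYZ and ESAM, and those with no row included PTPRC, PECAM1, COL1A2 and COL3A1. A missing row does not show that a gene was not expressed, because the table may not hold every gene.

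Transcription of a gene normally ends after its polyadenylation signal, where the nascent RNA is cleaved and the polymerase is released. When the polymerase passes that point and reaches the next gene, splicing can join an exon of the upstream gene to an exon of the downstream gene in 1 RNA. Such a transcript starts at the promoter of the upstream gene, ends at the 3' end of the downstream gene, and shares nearly all of its exons with one or the other. In short-read sequencing, only fragments that cross the joining junction, or that fall in exons of its own, are particular to it.

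The joining junctions of the read-through genes that the results turn on are shown first, because they are the letters by which a read can be told from a read of either parent. Each line gives 15 bases of the upstream gene's exon in lower case and 15 bases of the downstream gene's exon in capitals, 5' to 3', read from the GENCODE v29 transcripts (GRCh38):
PTGES3L-AARSD1: atggatgatttggatTTCACCACCACCGTG
BLOC1S5-TXNDC5: caggaacgaaaaaagGTGTGGACACTGCCA
EEF1E1-BLOC1S5: cttcatcgctttataATCTTGGAGAAATTC
TMEM189-UBE2V1: tctgcatcaccacagGAGTAAAAGTCCCTC
ISY1-RAB43: cagaaggctcctgggCTGCAGATCTGGGAC
NME1-NME2: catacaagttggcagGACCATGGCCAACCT
TVP23C-CDRT4: acagtaaagtggctgGAATCTGAACCTGTG
The PTGES3L-AARSD1 junction is used by 6 of its 7 annotated transcripts and joins position 42970289 to 42964237 on the minus strand of chromosome 17 (GRCh38). The BLOC1S5-TXNDC5 junction joins position 8026367 to 7904723 on the minus strand of chromosome 6 and removes an intron of 121643 bases. GENCODE v29 holds 81 junctions that join an exon of one parent to an exon of the other, in 43 of the 52 rows, and 21 rows have just 1. The joined introns run from 480 to 122683 bases, with a median of 18274 bases. SENP3-EIF4A1 and BIVM-ERCC5 have no junction that meets this definition.

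Beyond the junction, most of these genes have little sequence of their own. In GENCODE v29, 50 rows have both parents on the same strand, and 18 of them have no exonic base outside the exons of their parents. For 36 of the 50, under 10% of exonic bases lie outside parent exons. The median is 2.66% and the highest value is 56.5%, for BOLA2-SMG1P6. In BLOC1S5-TXNDC5, 12.3% of exonic bases lie in exons of BLOC1S5 and 87.7% in exons of TXNDC5, with none outside. In PTGES3L-AARSD1, 42.8% lie in exons of PTGES3L, 53.2% in exons of AARSD1 and 3.99% in neither.

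RefSeq (GRCh38.p14) gives a promoter window, 250 bases before to 50 bases after a gene's start, for 42 of the 52 rows. For 32 of these the parents have windows too, and 28 of the 32 overlap a window of the upstream parent while 0 overlap one of the downstream parent. The annotation therefore places these starts where the upstream gene starts.

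**Figure D1:**
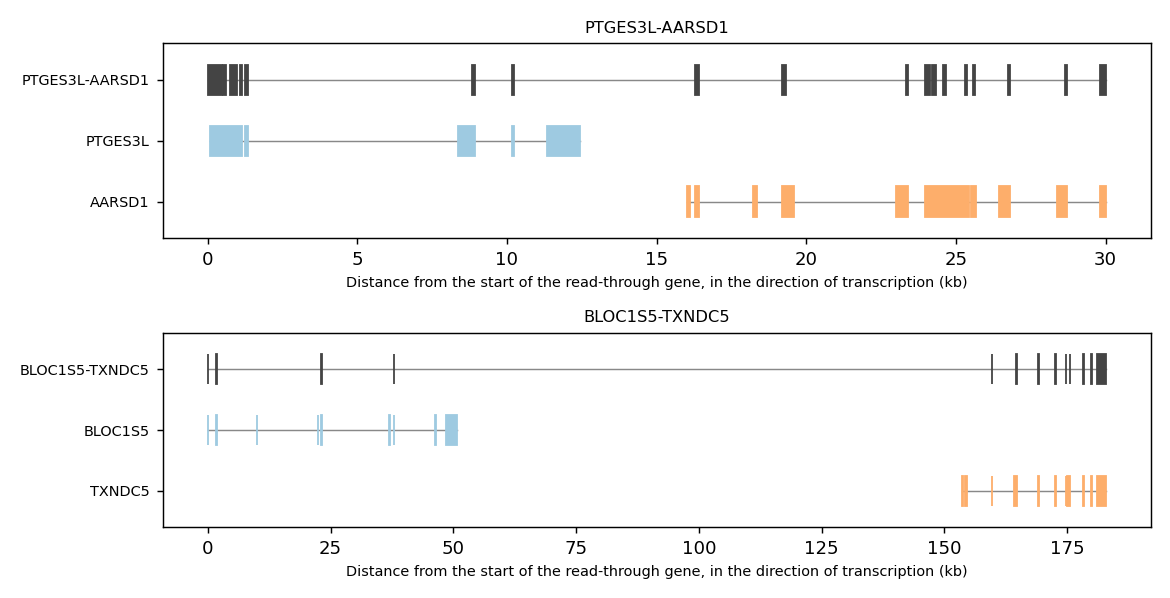
Exons of PTGES3L-AARSD1 and of BLOC1S5-TXNDC5 (dark grey) above those of the upstream parent (blue) and the downstream parent (orange), against the distance in kb from the start of the read-through gene along its strand, from GENCODE v29. Exons carry an outline, so the narrowest look wider than they are; the exons of BLOC1S5-TXNDC5 lie within those of its parents, with none of its exonic bases outside.

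Most read-through rows were low. Their median level was 2.07 FPKM, with means over the 6 libraries from 0.413 to 165.5 FPKM, beside a median of 6.001 FPKM for their listed parents and 6.55 FPKM for all listed genes. A mean of at least 10 FPKM was reached by 6 rows. The share of the locus, which is the percentage that the read-through row holds of the summed FPKM of itself and its listed parents, had a median of 14.5% over 51 loci. It exceeded 50% on average in 6 loci. These included both antisense-named genes, MMP24-AS1 and NCBP2-AS2, and also BLOC1S5-TXNDC5, whose mean of 60.0% covered libraries from 0.833% to 90.0%.

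In the test across all genes, 1 read-through row was called, PTGES3L-AARSD1, which was higher with mimics. A gene was tested where its mean was at least 1 FPKM, which 37 of the 52 rows reached. Groups were compared with limma on log2(FPKM + 1) with Benjamini-Hochberg adjustment over 10286 genes, and a gene was called at an adjusted p under 0.05. The call for 1 of 37 read-through rows stands beside 0.408% of all genes tested, 0.233% called higher and 0.175% called lower. PTGES3L-AARSD1 passed the filter only through the mimic libraries, with means of 0.106 FPKM in NC and 5.82 FPKM with mimics. With no filter, limma called 1 of 52 rows, again PTGES3L-AARSD1 (adjusted p 6.04e-05), beside 0.349% of 11187 listed genes. At an unadjusted p under 0.05 there were 4 of 37 rows (10.8%), PTGES3L-AARSD1, BLOC1S5-TXNDC5, TVP23C-CDRT4 and JMJD7-PLA2G4B, beside 14.6% of all genes tested. The 3 NC and the 3 mimic values did not overlap in 4 of the 37 rows, beside 22.2% of all genes tested. Of these, 3 were higher in mimic libraries (8.11%), beside 8.68% of all genes tested. Of the tested rows, 17 had a positive and 20 a negative log2 fold change, with a median of -0.02, beside a median of -0.0046 over all genes tested.

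One NC library was closer to the mimic libraries than to the other NC libraries, over all genes and over these rows. Over the 10286 tested genes, NC replicate 3 had a Pearson correlation of log2(FPKM + 1) of 0.978 to 0.979 with the mimic libraries and of 0.971 and 0.964 with NC replicates 1 and 2, which correlated at 0.982 with each other. On log2(FPKM + 1) over the 52 rows, it had a correlation of 0.885, 0.808 and 0.868 with mimic replicates 1, 2 and 3, and of 0.722 and 0.652 with NC replicates 1 and 2. The other pair of NC libraries correlated at 0.793 and the mimic libraries among themselves at 0.762 to 0.910. The points are genes of the same libraries and not independent. Over the 52 rows, BLOC1S5-TXNDC5 can weigh heavily, at 1.16 and 1.48 in NC replicates 1 and 2 and 154.1 FPKM in NC replicate 3. No correlation was computed without that row. Without NC replicate 3, limma called 2 of the 37 rows, PTGES3L-AARSD1 and BLOC1S5-TXNDC5, beside 14.8% of all genes. Leaving out the NC library nearest to the mimic libraries widens the gap between groups at rows where it sits with them. Calls that appear only without it, here and below, are therefore description and no support for a change.

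**Figure D2:**
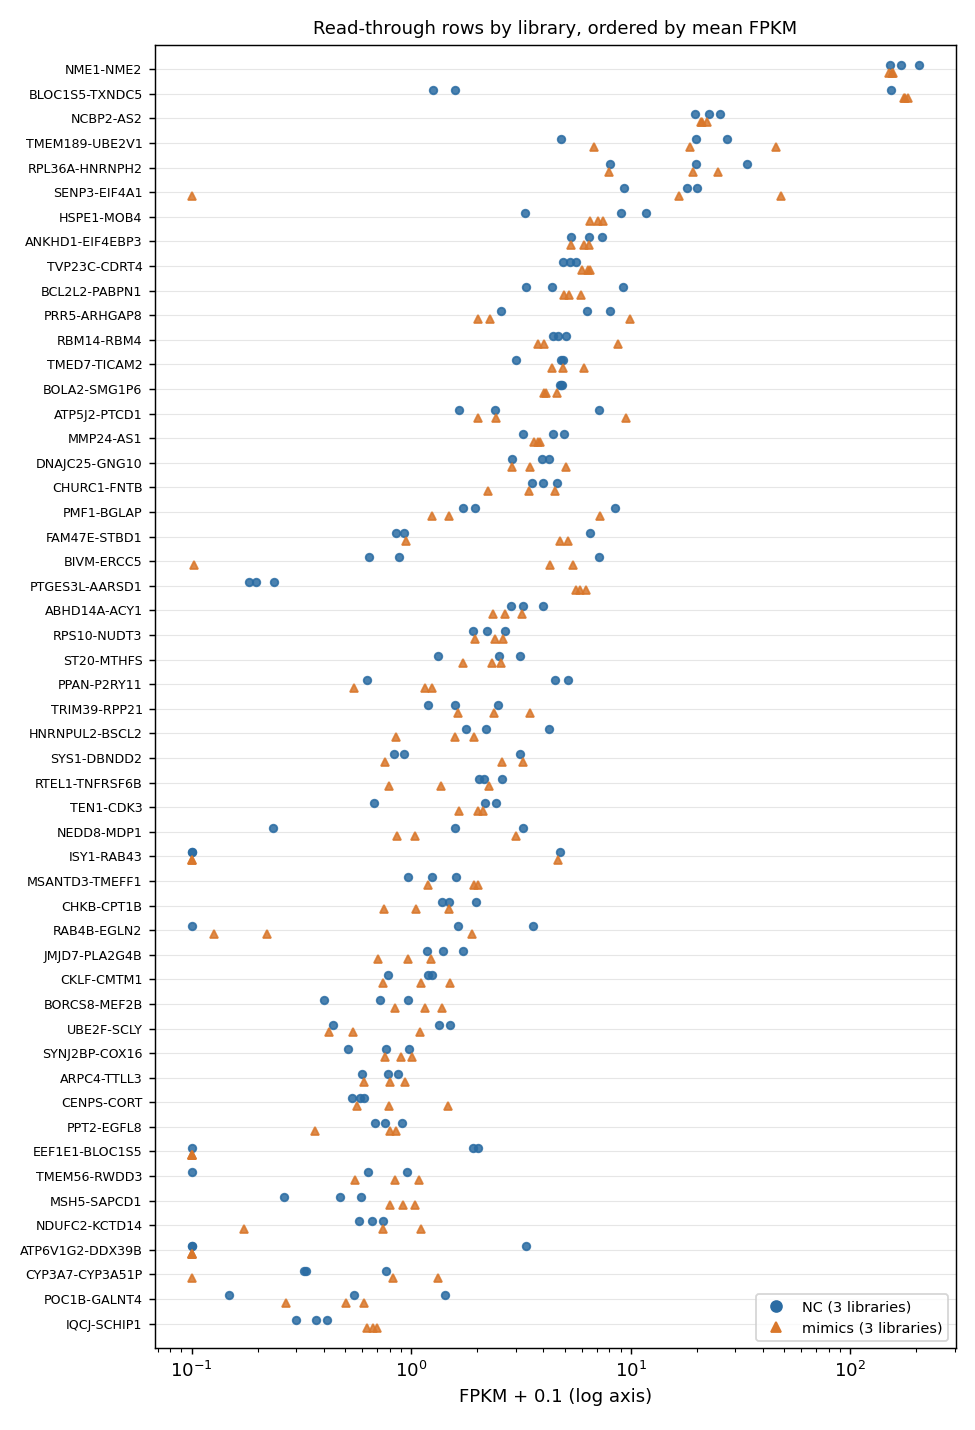
Level of each of the 52 rows in each library as FPKM + 0.1 on a log axis, ordered by mean, with NC libraries as circles and mimic libraries as triangles. PTGES3L-AARSD1 separates the groups, with NC between 0.0825 and 0.139 FPKM and mimic libraries between 5.52 and 6.17 FPKM, and NC replicate 3 sits with the mimic libraries in BLOC1S5-TXNDC5.

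PTGES3L-AARSD1 (ENSG00000108825.17_3) joins PTGES3L, a relative of the p23 co-chaperone, to AARSD1, which has an editing domain like that of alanyl-tRNA synthetase. It spans chr17:41102543-41132545 on the minus strand (GRCh37), and AARSD1 has its own row at chr17:41102543-41116515, while PTGES3L has none. The read-through row stood at 0.0960, 0.139 and 0.0825 FPKM in NC replicates 1, 2 and 3, and at 5.52, 5.78 and 6.17 FPKM in mimic replicates 1, 2 and 3. All 3 mimic libraries were above all 3 NC libraries, whose values were close to 0. The log2 fold change was 2.62 (SE 0.08) with an adjusted p of 6.02e-05 in limma, higher in 3 of 3 mimic libraries. Because the NC values are near 0, the fold change depends on the pseudocount, and it was 3.38 with 0.5 and 4.86 with 0.1 FPKM added in place of 1, with limma adjusted p-values of 5.68e-05 and 0.00015.

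AARSD1 moved the other way. Its row was at 5.84, 7.52 and 5.87 FPKM in the NC group against 1.88, 1.94 and 1.96 FPKM with mimics. The groups did not overlap, the mimic libraries being the lower ones, and the log2 fold change was -1.33 (SE 0.11) with a limma adjusted p of 0.0066. AARSD1 was the only 1 of 78 tested parent genes called by limma, and leaving out mimic replicate 2 ended that call, at a log2 fold change of -1.34 and an adjusted p of 0.0518.

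The summed level of the locus differed much less between groups than either row. PTGES3L-AARSD1 and AARSD1 together came to 5.94, 7.66 and 5.95 FPKM in the NC group against 7.40, 7.72 and 8.13 FPKM with mimics. These groups overlapped, and the log2 fold change of the sum was 0.23 (SE 0.11) with a limma adjusted p of 0.383. The read-through row held 1.60% ± 0.211 of the sum in NC and 75.1% ± 0.683 in mimic libraries (SD, n = 3 each), a difference of 73.5 points with an exact permutation p of 0.1, the smallest that 3 against 3 libraries can give. Each row is scaled by the length of its own transcripts, so the sum of FPKM is not a sum of reads. Whether the PTGES3L-AARSD1 RNA itself became more abundant, or reads of shared exons were assigned to another row, cannot be told apart in this table.

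BLOC1S5-TXNDC5 joins BLOC1S5, a subunit of a complex that forms lysosome-related organelles, to TXNDC5, a protein disulfide isomerase of the endoplasmic reticulum. It spans chr6:7881755-8064597 (GRCh37). Its row stood at 1.16, 1.48 and 154.1 FPKM in the NC group against 183.7, 176.5 and 177.4 FPKM with mimics. NC replicate 3 was near the mimic libraries and far above the other NC libraries, yet the groups did not overlap. With all libraries the log2 fold change was 4.26 (SE 1.53) and the limma adjusted p 0.287, and without NC replicate 3 it was 6.28 with an adjusted p of 9.83e-06. Leaving out NC replicate 1 or 2 instead gave 3.20 and 3.30, with limma adjusted p-values of 0.65 and 0.48.

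TXNDC5 showed the mirror image of that row. It was at 131.5, 134.7 and 10.1 FPKM in the NC group against 15.2, 13.9 and 14.1 FPKM with mimics, so NC replicate 3 was the lowest of the 6 and the groups overlapped. The log2 fold change was -1.92 (SE 0.91) with a limma adjusted p of 0.376, and -3.12 with an adjusted p of 5.39e-05 without NC replicate 3. Without NC replicate 1 or 2 it was -1.33 and -1.32, with limma adjusted p-values of 0.732 and 0.605. The upstream parent BLOC1S5 lay between 4.91 and 8.57 FPKM in the 6 libraries. The read-through row held 0.833%, 1.05% and 90.0% of the sum of the 3 rows in NC and 88.6%, 89.8% and 89.8% in mimic libraries.

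The neighbouring gene upstream, EEF1E1, encodes a scaffold protein of the multi-tRNA synthetase complex and is joined to BLOC1S5 by another read-through gene. EEF1E1-BLOC1S5 was listed at 0, 1.81 and 1.91 FPKM in the NC group against 0, 0 and 0 in mimic libraries. EEF1E1 itself was at 17.3, 17.1 and 26.6 FPKM in the NC group against 27.2, 27.2 and 27.5 FPKM with mimics, and NC replicate 3 was again the NC library nearest to the mimic libraries. Its log2 fold change of 0.44 (SE 0.16) had a limma adjusted p of 0.295, and 0.64 with 0.0128 without NC replicate 3. The 5 rows of both read-through genes and their parents summed to 155.9, 160.0 and 199.7 FPKM in the NC group against 234.6, 223.7 and 225.1 FPKM with mimics. The sum was higher in 3 of 3 mimic libraries, at a log2 fold change of 0.41 (SE 0.10) and a limma adjusted p of 0.176, and 0.53 with 0.0155 without NC replicate 3.

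**Figure D3:**
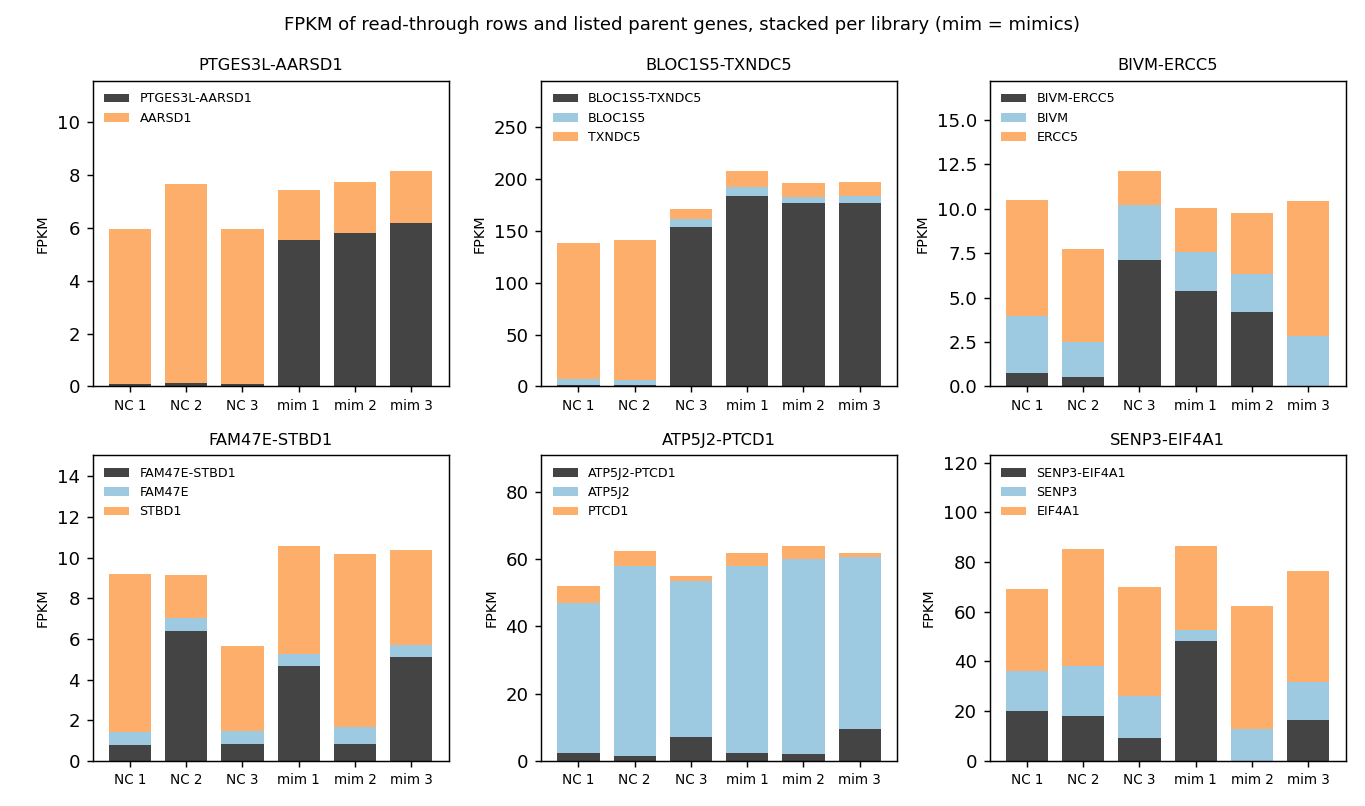
Stacked FPKM of 6 read-through rows (dark grey) and their listed parents (upstream blue, downstream orange) in each library. At PTGES3L-AARSD1 the parts of the bars exchange places, while the total lay between 5.94 and 8.13 FPKM. This did not hold throughout the 6 loci. At SENP3-EIF4A1 the joined row and its parents were all lower in NC replicate 3 than in NC replicate 2. At FAM47E-STBD1 the total was lowest in NC replicate 3, at 5.67 FPKM.

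Apart from BLOC1S5-TXNDC5, the most abundant rows differed little between groups or varied widely inside them. NME1-NME2 joins a pair of nucleoside diphosphate kinases and was read at 171.2, 206.0 and 152.1 FPKM in the NC group against 155.7, 157.3 and 150.6 FPKM with mimics. The groups overlapped, at a log2 fold change of -0.18 (SE 0.11) and a limma adjusted p of 0.467. Its share of the locus, beside NME1 at 33.3 to 40.7 FPKM and NME2 at 60.8 to 75.6 FPKM, averaged 63.2% ± 1.26 over the NC libraries and 57.8% ± 0.778 over the mimic libraries (SD, n = 3 each). The shares did not overlap, and the exact permutation p was 0.1. NME1 and NME2 are closely related in sequence, so reads can also be shared between them.

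NCBP2-AS2, the antisense-named gene opposite NCBP2, a subunit of the nuclear cap-binding complex, was at 22.6, 25.4 and 19.5 FPKM in the NC group against 21.0, 22.2 and 20.8 FPKM with mimics, overlapping, and its limma adjusted p was 0.77. TMEM189-UBE2V1 joins an enzyme of plasmalogen synthesis to a variant ubiquitin-conjugating enzyme. It was at 4.71, 27.3 and 19.7 FPKM in the NC group against 45.7, 6.68 and 18.5 FPKM with mimics. Low and high libraries occurred in both groups, the log2 fold change was 0.35 (SE 0.78) and the limma adjusted p 0.838. TMEM189 lay between 3.00 and 7.49 FPKM and UBE2V1 between 43.4 and 56.7 FPKM, so the parents varied less than the joined row.

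SENP3-EIF4A1 joins a SUMO protease to the RNA helicase of translation initiation. It was read at 19.9, 18.0 and 9.18 FPKM in the NC group against 48.2, 0 and 16.5 FPKM with mimics. Mimic replicate 1 was the highest and mimic replicate 2, listed at 0, the lowest, at a log2 fold change of -0.74 (SE 1.29) and a limma adjusted p of 0.794. In mimic replicate 1, where the joined row was highest, SENP3 was at 4.57 and EIF4A1 at 33.8 FPKM, and in mimic replicate 2 they were at 12.8 and 49.5 FPKM.

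RPL36A-HNRNPH2 joins a ribosomal protein gene to an RNA-binding protein gene on chromosome X. It was at 7.97, 33.7 and 19.7 FPKM in the NC group against 7.91, 24.96 and 19.1 FPKM with mimics, so each group held a low, a middle and a high value. The limma adjusted p was 0.901. The parents RPL36A (107 to 117 FPKM) and HNRNPH2 (75.2 to 121.4 FPKM) stood well above it in each library.

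This variation inside groups was common to many of the rows. A row was counted where, after adding 0.1 FPKM, its highest library was at least 3 times its lowest in NC or in mimic libraries, a limit chosen after the values were seen. That held for 23 of the 52 rows (44.2%), beside 2.88% of all listed genes, 11.6% of the 86 listed parents and 14.4% of the 787 other genes that overlap a listed gene on the same strand. Among rows with a mean of 1 to 10 FPKM it held for 12 of 31, beside 2.83% of all genes in the same range of level. With a ratio of at least 2, there were 35 rows (67.3%) beside 7.98% of all listed genes. The ratio of at least 3 was seen in 20 rows in NC, in 14 rows in mimic libraries and in 11 rows in both. The median SD of log2(FPKM + 1) within groups was 0.42 over the tested read-through rows, 0.18 over their tested parents and 0.13 over all genes tested.

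**Figure D4:**
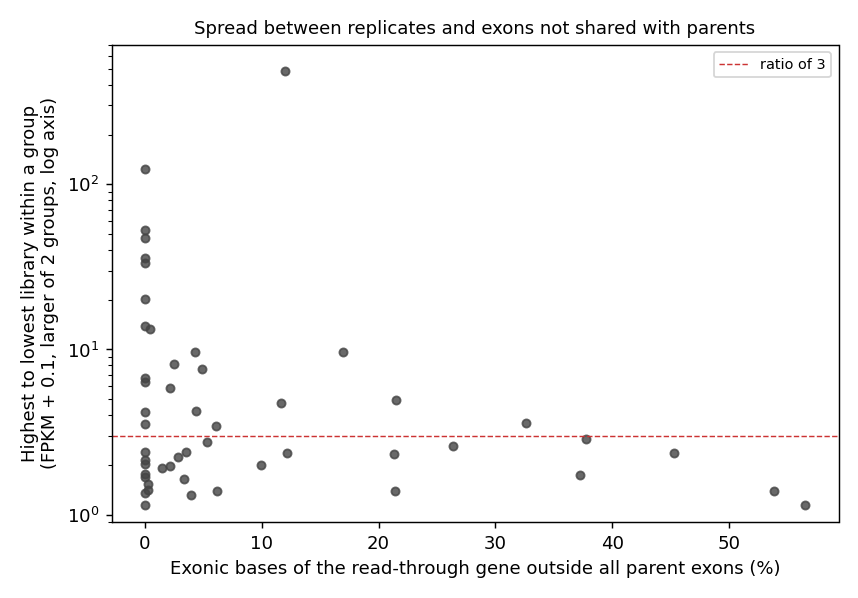
Spread of the read-through rows inside groups, as the ratio of the highest to the lowest library after adding 0.1 FPKM (the larger of the 2 groups, log axis), against the percentage of exonic bases that lie in no parent exon; each point is 1 row and the dashed line marks a ratio of 3. Rows with a highest library at least 3 times the lowest numbered 11 of the 18 with no base of their own, 7 of the 18 with some but under 10%, and 5 of the 14 with 10% or more.

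In some loci, picked after their values were seen, a parent was low where the joined row was high. How many rows did this was not counted, and it did not hold in all. CYP3A7-CYP3A51P and its parent CYP3A7 were both highest in mimic replicate 2, at 1.23 and 3.79 FPKM. BIVM-ERCC5 includes ERCC5, the endonuclease XPG of nucleotide excision repair. It was at 0.784, 0.541 and 7.11 FPKM in the NC group against 5.36, 4.19 and 0.00314 FPKM with mimics, while ERCC5 was at 6.50, 5.23 and 1.88 FPKM in the NC group against 2.49, 3.44 and 7.62 FPKM with mimics. The 3 libraries with the highest joined row had the 3 lowest values of ERCC5. The sum with BIVM lay between 7.74 and 12.1 FPKM, with a highest to lowest ratio of 1.56 in NC and 1.07 in mimic libraries.

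FAM47E-STBD1 includes STBD1, a glycogen-binding protein. The joined row was at 0.757, 6.41 and 0.827 FPKM in the NC group against 4.69, 0.851 and 5.11 FPKM with mimics, and STBD1 was at 7.77, 2.12 and 4.18 FPKM in the NC group against 5.32, 8.53 and 4.65 FPKM with mimics. The highest value of the joined row and the lowest of STBD1 fell in NC replicate 2. The limma adjusted p of FAM47E-STBD1 was 0.746.

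ISY1-RAB43 joins a splicing factor to a small GTPase of the Golgi and was listed at 0, 4.65 and 0 FPKM in the NC group against 0, 4.56 and 0 FPKM with mimics. In the 2 libraries where it was present, ISY1 was at 5.42 and 4.68 FPKM, and in the other 4 it was between 9.04 and 10.8 FPKM. RAB43 was at 1.08 and 0.709 FPKM in those 2 libraries and at 1.88 to 12.6 FPKM in the others. The summed level of the locus was not steady, at 22.06, 11.15 and 20.37 FPKM in the NC group against 18.93, 9.95 and 10.92 FPKM with mimics. In each group it was lowest where the joined row was present.

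ATP5J2-PTCD1, which joins a subunit of mitochondrial ATP synthase to a mitochondrial RNA-binding protein, was at 2.31, 1.56 and 7.10 FPKM in the NC group against 2.35, 1.92 and 9.44 FPKM with mimics. PTCD1 was at 5.26, 4.63 and 1.33 FPKM in the NC group against 3.86, 4.04 and 1.18 FPKM with mimics, lowest in the 2 libraries where the joined row was highest. PMF1-BGLAP, where PMF1 is a kinetochore protein, was at 1.63, 8.38 and 1.85 FPKM in the NC group against 1.39, 1.14 and 7.15 FPKM with mimics. PMF1 was at 16.9, 9.15 and 16.1 FPKM in the NC group against 10.7, 11.1 and 9.01 FPKM with mimics, and in each group it was lowest where the joined row was highest. These 5 loci, described after their values were seen, had joined rows that were high in 1 or more libraries of each group.

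Of the 23 rows, 16 had a locus sum whose highest library was under 1.5 times the lowest in each group, a limit also chosen after the values were seen. The listed parents alone, summed without the joined row, met that limit in 11 of the 23 loci. A low row adds little to the sum with an abundant parent, so a steady sum alone does not show that the rows offset each other. A value of exactly 0 was listed in 1 or more libraries for 6 of the 52 rows, beside 0.572% of all listed genes. Each of the 6 reached at least 1 FPKM in another library of the same group, beside 0.366% of all listed genes. Besides ISY1-RAB43, SENP3-EIF4A1 and EEF1E1-BLOC1S5, these were ATP6V1G2-DDX39B, RAB4B-EGLN2 and CYP3A7-CYP3A51P. An exact 0 can be a failed estimate as well as an absent transcript.

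ATP6V1G2-DDX39B, whose downstream parent is an mRNA export helicase, was listed at 0, 3.23 and 0 FPKM in the NC group against 0, 0 and 0 in mimic libraries. DDX39B was at 25.04 to 37.2 FPKM. RAB4B-EGLN2 joins an endosomal GTPase to a prolyl hydroxylase of the hypoxia response, and was at 1.54, 3.48 and 0 FPKM in the NC group against 0.120, 1.80 and 0.0266 FPKM with mimics, with a limma adjusted p of 0.639. CYP3A7-CYP3A51P was at 0.226, 0.233 and 0.669 FPKM in the NC group against 0, 1.23 and 0.731 FPKM with mimics. In all 3 rows the groups overlapped.

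TVP23C-CDRT4, which starts in a gene of a Golgi membrane protein, was one of 2 loci where a joined row and a parent differed in opposite directions, each without overlap. It was at 5.55, 4.84 and 5.17 FPKM in the NC group against 6.43, 6.27 and 5.93 FPKM with mimics. Each mimic library was above each NC library, at a log2 fold change of 0.22 (SE 0.08) and a limma adjusted p of 0.295. CDRT4 was at 0.857, 1.15 and 0.993 FPKM in the NC group against 0.458, 0.497 and 0.749 FPKM with mimics, each mimic library below each NC library. Over all loci, 2 of 85 same-strand pairs of a joined row and a parent did this (2.35%), TVP23C-CDRT4 with CDRT4 and PTGES3L-AARSD1 with AARSD1, beside 2.06% of 486 other overlapping pairs. Counted by a 1.5-fold difference of means in place of non-overlap, there were 4 of 85 (4.71%) beside 1.23%, and without NC replicate 3 there were 4 of 85 beside 6.17%. Among pairs whose rows both had a mean of at least 1 FPKM, 1 of 57 did so (1.75%), beside 2.37% of 295 other pairs.

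**Figure D5:**
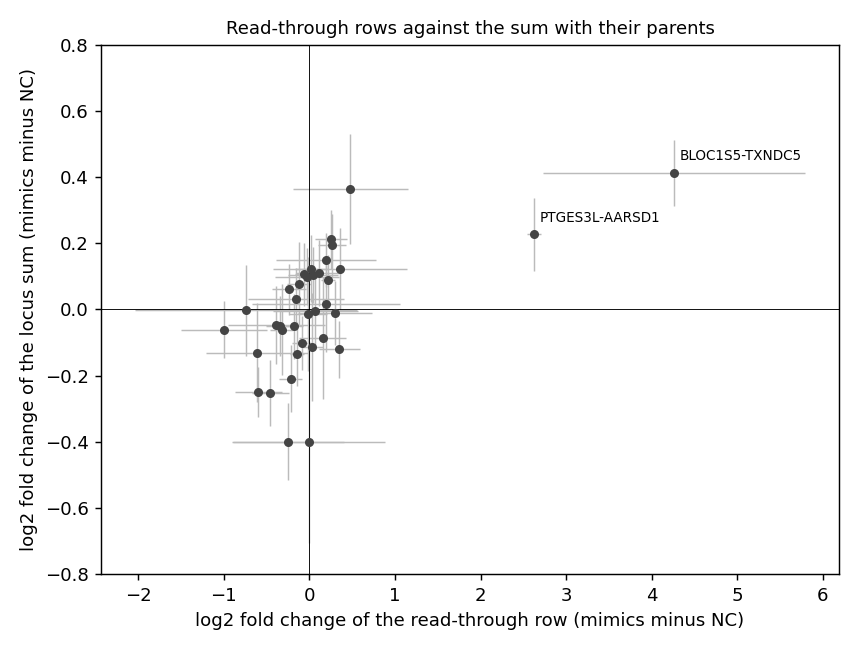
Log2 fold change (mimic minus NC, on log2(FPKM + 1)) of each tested read-through row against that of its locus sum, with bars of 1 SE from limma. The rows spread from -0.995 (PPAN-P2RY11) to 4.26 (BLOC1S5-TXNDC5), while the sums stay within a much narrower band. A sum also holds the parents, so a row that is a small part of it moves it little. The narrower band alone does not show that rows offset each other.

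The lower rows among the largest differences did not pass the test. PPAN-P2RY11 joins a factor of ribosome assembly to a purinergic receptor, and was at 4.44, 0.531 and 5.08 FPKM in the NC group against 1.05, 1.15 and 0.447 FPKM with mimics. NC replicate 2 lay inside the range of the mimic libraries, the log2 fold change was -0.995 (SE 0.51) and the limma adjusted p 0.402. PPAN was at 8.86, 12.0 and 5.72 FPKM in the NC group against 10.6, 10.9 and 11.2 FPKM with mimics, and the sum with P2RY11 stayed between 11.6 and 13.8 FPKM.

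HNRNPUL2-BSCL2 joins an RNA-binding protein gene to that of seipin, a protein of lipid droplet formation. It was at 2.10, 1.67 and 4.14 FPKM in the NC group against 0.749, 1.84 and 1.49 FPKM with mimics, overlapping, with a limma adjusted p of 0.374. HNRNPUL2 was at 48.2, 47.8 and 43.3 FPKM in the NC group against 35.2, 36.5 and 36.0 FPKM with mimics, without overlap, at a log2 fold change of -0.36 and a limma adjusted p of 0.126. HNRNPUL2 passed the test without NC replicate 3 (log2 fold change -0.41, limma adjusted p 0.0222) and under GC correction (-0.32, limma adjusted p 0.0348). RTEL1-TNFRSF6B, which joins a telomere helicase to a decoy receptor, was at 2.50, 2.05 and 1.94 FPKM in the NC group against 0.690, 1.26 and 2.16 FPKM with mimics, overlapping, with a limma adjusted p of 0.377.

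Other abundant rows were closer between groups. HSPE1-MOB4 starts in the gene of the mitochondrial co-chaperonin, and was at 8.91, 3.21 and 11.6 FPKM in the NC group against 6.43, 7.39 and 7.01 FPKM with mimics. BCL2L2-PABPN1 joins an antiapoptotic gene to that of the nuclear poly(A)-binding protein, and was at 4.29, 3.23 and 9.09 FPKM in the NC group against 5.16, 5.84 and 4.85 FPKM with mimics. ANKHD1-EIF4EBP3, whose downstream parent is a repressor of translation initiation, was at 7.34, 5.25 and 6.35 FPKM in the NC group against 6.34, 6.02 and 5.28 FPKM with mimics. Their limma adjusted p-values were 0.979, 0.951 and 0.769, and the groups overlapped in each. The BCL2L2 row itself was at 0.908, 11.8 and 0.314 FPKM in the NC group against 13.8, 0.606 and 12.6 FPKM with mimics, low and high in both groups.

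Of the rows below the filter, 2 did not overlap between groups, giving 6 of all 52 rows beside 22.4% of all listed genes. IQCJ-SCHIP1 was at 0.199, 0.314 and 0.268 FPKM in the NC group against 0.527, 0.602 and 0.570 FPKM with mimics. MSH5-SAPCD1, whose upstream parent acts in meiotic recombination, was at 0.376, 0.163 and 0.489 FPKM in the NC group against 0.947, 0.821 and 0.700 FPKM with mimics. Both were higher in 3 of 3 mimic libraries (exact permutation p = 0.1). BOLA2-SMG1P6, tested, was lower in 3 of 3 mimic libraries, at 4.71 ± 0.0512 FPKM in the NC group against 4.17 ± 0.308 FPKM with mimics (SD, n = 3 each), with a limma adjusted p of 0.435. BOLA2 has a near-identical copy in the genome, so its reads and those of the joined row are uncertain.

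As a share of the locus, 6 of 51 rows did not overlap between groups (11.8%), 4 higher and 2 lower with mimics. The same count over 486 other pairs of listed genes overlapping on the same strand, as the share of one row in the sum of both, was 17.5%. Besides PTGES3L-AARSD1 and NME1-NME2, these were TVP23C-CDRT4 (62.2% in NC and 69.6% in mimic libraries), BORCS8-MEF2B (23.8% and 40.0%), MSH5-SAPCD1 (11.2% and 23.2%) and, lower, the antisense-named MMP24-AS1. Without the antisense-named rows there were 5 of 49. The exact permutation p of each was 0.1, the smallest possible.

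The locus sums gave no call. After replacing each joined row and its listed parents by their sum, limma called 0 of 50 loci, beside 0.391% of 10221 rows tested, and 8 of 50 (16%) had an unadjusted p under 0.05, beside 14.8%. No other tool was run on the sums. Without NC replicate 3, limma called 7 of 50 loci, beside 15.6% of rows. The sums did not overlap between groups in 12 of 50 loci (24%), 6 higher and 6 lower in mimic libraries, beside 22.3% of all rows tested. After the BLOC1S5 locus, those of lowest p were PMF1-BGLAP, at 18.0 ± 0.476 and 13.5 ± 2.30 FPKM in the NC group against mimic libraries, and HNRNPUL2-BSCL2, at 58.7 ± 4.502 and 49.1 ± 0.738 FPKM (SD, n = 3 each). Their limma adjusted p-values were 0.218 and 0.229.

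The remaining rows are given by group means with SD over 3 libraries, and none was called by limma where tested. In genes of mitochondrial proteins, NDUFC2-KCTD14 was at 0.563 ± 0.0856 FPKM in the NC group against 0.575 ± 0.470 FPKM with mimics, SYNJ2BP-COX16 at 0.656 ± 0.234 and 0.790 ± 0.126 FPKM, and CHKB-CPT1B at 1.52 ± 0.321 and 0.997 ± 0.370 FPKM. In genes of RNA and ribosome function, RBM14-RBM4 was at 4.63 ± 0.321 and 5.42 ± 2.81 FPKM, RPS10-NUDT3 at 2.17 ± 0.388 and 2.24 ± 0.340 FPKM, and TRIM39-RPP21 at 1.65 ± 0.663 and 2.40 ± 0.934 FPKM. RPS10-NUDT3 held 0.732% to 1.06% of its locus, where the ribosomal protein gene RPS10 is far more abundant.

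In genes of ubiquitin and related conjugation, UBE2F-SCLY was at 0.994 ± 0.573 FPKM in the NC group against 0.589 ± 0.360 FPKM with mimics, and NEDD8-MDP1 at 1.59 ± 1.51 and 1.54 ± 1.19 FPKM. In genes of membrane traffic, TMED7-TICAM2 was at 4.13 ± 1.07 and 5.05 ± 0.904 FPKM, SYS1-DBNDD2 at 1.54 ± 1.31 and 2.10 ± 1.28 FPKM, and BORCS8-MEF2B at 0.598 ± 0.284 and 1.03 ± 0.270 FPKM. In genes of the cytoskeleton and small GTPases, ARPC4-TTLL3 was at 0.652 ± 0.138 and 0.686 ± 0.166 FPKM and PRR5-ARHGAP8 at 5.56 ± 2.81 and 4.66 ± 4.51 FPKM. The groups overlapped in these 7 rows.

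In genes of chromosome ends, centromeres and the cell cycle, TEN1-CDK3 was at 1.67 ± 0.951 FPKM in the NC group against 1.83 ± 0.251 FPKM with mimics, and CENPS-CORT at 0.476 ± 0.0372 and 0.842 ± 0.468 FPKM. In genes of metabolic enzymes and protein modification, ABHD14A-ACY1 was at 3.25 ± 0.574 and 2.65 ± 0.419 FPKM, ST20-MTHFS at 2.22 ± 0.917 and 2.11 ± 0.442 FPKM, CHURC1-FNTB at 3.96 ± 0.553 and 3.30 ± 1.14 FPKM, PPT2-EGFL8 at 0.686 ± 0.113 and 0.573 ± 0.270 FPKM, POC1B-GALNT4 at 0.609 ± 0.654 and 0.362 ± 0.176 FPKM, and JMJD7-PLA2G4B at 1.34 ± 0.277 and 0.871 ± 0.264 FPKM. The last of these had a limma adjusted p of 0.339. In genes of signalling proteins, CKLF-CMTM1 was at 0.976 ± 0.254 and 1.02 ± 0.377 FPKM, DNAJC25-GNG10 at 3.59 ± 0.719 and 3.71 ± 1.13 FPKM, and MSANTD3-TMEFF1 at 1.17 ± 0.316 and 1.61 ± 0.448 FPKM. TMEM56-RWDD3 was at 0.465 ± 0.434 and 0.731 ± 0.270 FPKM, and MMP24-AS1 at 4.11 ± 0.886 and 3.65 ± 0.127 FPKM. The groups overlapped in each of these 13 rows.

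The factors that end transcription were examined beside the read-through genes, as a list of 50 symbols for cleavage, polyadenylation, termination and RNA decay at gene ends. Of these, 47 were listed and 46 tested, and limma called 0, beside 0.408% of all genes tested. At so low a share, 0 calls among 46 genes says little about them. The log2 fold change was positive in 23 and negative in 23. Their median log2 fold change was -0.0002, with a range from -0.45 to 0.28, beside -0.0046 over all genes tested. No other tool was run on these genes.

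The mature miR-3648, with its seed (bases 2 to 8) in capitals, is shown because a transcript can be bound through a match to this seed in its 3' UTR. The sequence is that of RefSeq (GRCh38.p14):
hsa-miR-3648: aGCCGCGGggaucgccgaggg
The matching site, CCGCGGC in DNA letters on the transcript strand, was present in the longest annotated 3' UTR of 2 of 51 rows (3.92%), BORCS8-MEF2B and JMJD7-PLA2G4B, beside 2.62% of 11080 listed genes. PTGES3L-AARSD1 and BLOC1S5-TXNDC5 did not hold these letters in that UTR. A match is a description of the letters and not of binding.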

How the data were processed

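RNA sequencing of 6 libraries was used, 3 of AGS cells transfected with NC and 3 with miR-3648 mimics, grouped by the sample titles. The authors deposited 1 table of FPKM per gene. The submitters' processing notes name StringTie 1.3.3, cutadapt (no version) and GRCh37, and libraries were made with a stranded kit, per the labels' protocols. On aligner, annotation release and strand setting, nothing is given in the sources used here. Genes that overlap on 1 strand can exchange fragments in such an estimate.

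Members were the rows named by 2 symbols joined by 1 hyphen, without HLA- names. The members and lists were chosen with earlier results of these data known. Groups were compared with limma 3.58.1 (R 4.3.3, intensity trend, two-sided) on log2(FPKM + 1) for genes with a mean of at least 1 FPKM, with Benjamini-Hochberg adjustment over all 10286 genes tested at 0.05; fold changes on this scale understate those of low genes. The same fit was made on locus sums, and shares were compared by an exact permutation test over 20 assignments. The fit was tested on simulated data. Values were printed per library for called rows, the 10 of largest absolute log2 fold change and the 10 of highest mean; others given so were chosen after their values were seen. GENCODE v29 (GRCh38), matched by gene identifier, gave exons and junctions, and RefSeq gave promoter windows and the microRNA; coordinates of table rows are on GRCh37. Alternatives were other pseudocounts (0.1, 0.5), other filters, GC correction, a replicate block and leaving out each library.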

Additional observations from a re-analysis of the deposited data

How the results depend on the processing

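The call of PTGES3L-AARSD1 held under each alternative run, with log2 fold changes of 2.59 to 2.66 when 1 library was left out, 3.38 at a pseudocount of 0.5 and 4.86 at 0.1. Leaving out libraries gave 1 to 2 called read-through rows, 0 to 9 called parents and 0 to 7 called loci. Genes called higher numbered 4 to 798 (24 with all libraries), and genes called lower 2 to 729 (18 with all). The upper counts of calls came without NC replicate 3. There limma called 11.5% of 78 parents beside 14.8% of all genes, and 14% of 50 loci beside 15.6% of rows. Loci with non-overlapping shares numbered 8 to 13 (6 with all libraries), and opposite pairs 3 to 6 (2 with all). Smaller groups fail to overlap more easily, so the rise in these last counts is no result about the rows. Under GC correction limma called 2 parents (AARSD1 and HNRNPUL2), 60 genes higher and 38 lower. The opposite pairs numbered 4 under the 1.5-fold rule and 1 among rows with a mean of at least 1 FPKM. NCBP2-AS2 turned to 0.0468 under GC correction; the cause was not tested. Without 1 library, log2 fold changes ran from -0.19 to 0.0188 for ANKHD1-EIF4EBP3, -0.22 to 0.41 for BCL2L2-PABPN1, -0.50 to 0.30 for HSPE1-MOB4, -0.16 to 0.0227 for NCBP2-AS2, -0.69 to 0.29 for RPL36A-HNRNPH2, -1.93 to 0.88 for SENP3-EIF4A1 and -0.34 to 1.01 for TMEM189-UBE2V1. Same-numbered libraries did not deviate together (correlations 0.04, -0.04 and 0.07 over tested genes). The labels do not say whether the numbers pair the libraries, and these correlations cannot settle it. With a replicate block limma called 6 genes higher and 5 lower, PTGES3L-AARSD1 among them. With a within-group ratio of at least 2, 35 rows were counted in place of 23. The unknown depth and the lack of counts limit what low rows can show.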

Other observations

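Some joined names contain an open-reading-frame symbol with lower-case letters and so fall outside the naming rule; 6 such rows were listed. RPL17-C18orf32 was at 4.24, 4.09 and 3.58 FPKM in the NC group against 3.72, 4.49 and 0 FPKM with mimics, while the ribosomal protein gene RPL17 was at 70.3 to 100.2 FPKM. C7orf55-LUC7L2, whose downstream parent is a splicing factor, was at 6.03, 3.44 and 1.31 FPKM in the NC group against 6.18, 0 and 3.83 FPKM with mimics, and LUC7L2 was at 17.6 to 20.8 FPKM. Each was listed at 0 in 1 mimic library, and the groups overlapped in both. TGIF2-C20orf24 was at 0.242, 0.631 and 1.13 FPKM in the NC group against 0, 1.02 and 0.779 FPKM with mimics. C15orf38-AP3S2, joined to a subunit of an adaptor complex of vesicle traffic, was at 12.2, 13.5 and 11.3 FPKM in the NC group against 11.9, 8.81 and 12.4 FPKM with mimics. RNASEK-C17orf49 was at 3.76, 5.87 and 4.53 FPKM in the NC group against 3.61, 6.18 and 3.17 FPKM with mimics. The limma adjusted p-values of the tested rows among these 5 lay at 0.573 or above. ZHX1-C8orf76 was the exception in that each mimic library lay above each NC library, at 1.51, 1.15 and 1.91 FPKM in the NC group against 3.47, 2.61 and 3.53 FPKM with mimics. Its log2 fold change was 0.74 with a limma adjusted p of 0.126.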
